A study of Mus musculus with 20 samples.

Results

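Acetylation of lysine 27 on histone H3 (H3K27ac) was compared between whole mouse liver and cultured neural progenitor cells (NPCs), with 1 chromatin immunoprecipitation sequencing (ChIP-seq) library for each. The genome was read in 1 kb bins of the 19 autosomes, and a bin was called marked where it held at least 4 RPM (the per-million read count, scaled to distinct autosomal reads) and at least 3 times the level of a total histone H3 library, with 0.5 RPM added to both. Of 2240062 bins with a read in any library of the series, 65015 were marked in liver, in NPCs or in both. These 65015 bins were the subject of the comparison. They were divided into 28414 promoter bins, which carried H3K4me3 at 4 RPM or more in liver or in embryonic stem (ES) cells, and 36601 bins elsewhere. A marked bin was called liver-only where it was marked in liver, not marked in NPCs and at least 4-fold higher in liver, and NPC-only by the mirror rule. It was called shared where both marked it and the levels were less than 4-fold apart, and intermediate otherwise.

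H3K27ac is deposited by acetyltransferases such as p300 at promoters and enhancers that are in use, and it is removed when they fall silent. H3K4me3 marks the starts of genes, whereas H3K4me1 spreads over enhancers and can be present before they become acetylated. Promoters of housekeeping genes are acetylated in most cell types, while acetylated enhancers differ widely from one cell type to the next.

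The series held 20 libraries from liver, NPCs, mouse embryonic fibroblasts (MEFs), induced pluripotent stem (iPS) cells and ES cells. The liver chromatin came from perfused whole liver that was dissociated, strained and collected by low-speed centrifugation, so it was a mixture of the cell types of the organ that this preparation kept. The labels give neither the strain nor the age of the animals. The NPCs were derived from 129JAE-C57/B6 ES cells through embryoid bodies of 4 days and selection for 5 to 7 days in ITSFn medium, and were then cultured in N3 medium with FGF and EGF. The ES cells, used here as the undifferentiated state, were grown on irradiated MEFs and then off them on gelatin. They were of the V6.5 line (C57BL/6-129), labelled 129JAE-C57/B6, except that the 3 ES H3K4me1 libraries came from different lines: 1 from V6.5, 1 from cells of that background carrying the dox inducible 4f2a transgene, and 1 from the inbred C57BL/6 line j21. The labels name no treatment for the liver, the NPCs or the ES cells, and do not say whether the transgenic cells were given doxycycline. The same antibody, Abcam AB4729, was used for H3K27ac in all 3. Chromatin was sheared to a mean of 500 bp and libraries were amplified over 18 cycles. The H3 background was from liver for the liver library and from ES cells for the NPC library. No H3, whole cell extract or H3K4me3 library of NPCs was used here, so promoters with H3K4me3 in NPCs but in neither liver nor ES cells lie among the bins elsewhere.

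The liver library held 5.25 M reads, of which 5.05 M were distinct autosomal positions and 2.74% of autosomal reads were repeats. The NPC library held 8.57 M reads, with 6.81 M distinct positions and 19.1% repeats, and was thinned at random to the liver depth. At that depth 4 RPM was 21 reads, against a mean of 2.25 reads per bin. The liver H3 library (4.28 M distinct reads) reached 4 RPM in 99 bins and the ES H3 library (9.38 M) in 107 bins. The background criterion removed 1015 of 52509 liver bins and 173 of 28799 NPC bins that had reached 4 RPM. The ES H3K4me3 library, which helped to define promoters, had 70.0% repeats and 2.32 M distinct reads. With 1 library for each cell type there was no test, and the 95% intervals given here cover counting error only (Wilson for shares, exact for ratios of reads). Fewer acetylated cells in a mixture and less acetylation per cell cannot be told apart in these libraries. The labelled cell types could not be checked against marker genes, since no gene annotation of the build of the files was used.

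In each cell type most acetylated promoter bins were also marked in the other, only a little above the share of all promoter bins. Most acetylated bins elsewhere were not marked in the other. At promoters 11276 of 28414 marked bins were shared, which is 39.7% (39.1 to 40.3%). Elsewhere 1202 of 36601 were shared, which is 3.28% (3.11 to 3.47%). Of the promoter bins marked in liver 59.2% were also marked in NPCs, and of those marked in NPCs 73.2% were also marked in liver. Away from promoters these overlaps were 4.53% of the liver bins and 13.1% of the NPC bins. Of all promoter bins 50.5% were marked in NPCs and 62.4% in liver, so the overlaps at promoters stood only a little above these shares. Of all bins elsewhere 0.442% were marked in NPCs and 1.28% in liver. Against those shares the overlaps elsewhere, though small, were many times higher.

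The bins that told the cells apart were more often acetylated in liver. At promoters 7943 bins (28.0%) were liver-only and 3439 (12.1%) NPC-only. Promoters were called without H3K4me3 of NPCs, and 7072 of the liver-only promoter bins had H3K4me3 in liver and not in ES cells. Where both liver and ES cells had H3K4me3 the order was reversed, with 823 liver-only and 2402 NPC-only bins. Elsewhere 24168 bins (66.0%) were liver-only and 6617 (18.1%) NPC-only. Over all 2240062 bins, liver-only bins made up 1.43% and NPC-only bins 0.449%. Intermediate bins made up 20.3% of the marked bins at promoters, of which 215 were marked in both cells and at least 4-fold higher in liver, and 2340 were marked in both and at least 4-fold higher in NPCs. Elsewhere 12.6% were intermediate.

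The spread between libraries of 1 cell type was much smaller by the same rule. When the pair of ES H3K27ac libraries was thinned to the same depth, 16286 of 20348 promoter bins marked in either (80.0%) were shared, and 17039 of 28023 elsewhere (60.8%). Only 8 bins in all, 0.000357% of those tested, were marked in the first library alone and 4-fold higher, and 32, or 0.00143%, in the second. The labels do not say that these libraries came from separate cultures, so this spread may be technical in part, and the same spread was not measured for liver or for NPCs.

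**Figure D1:**
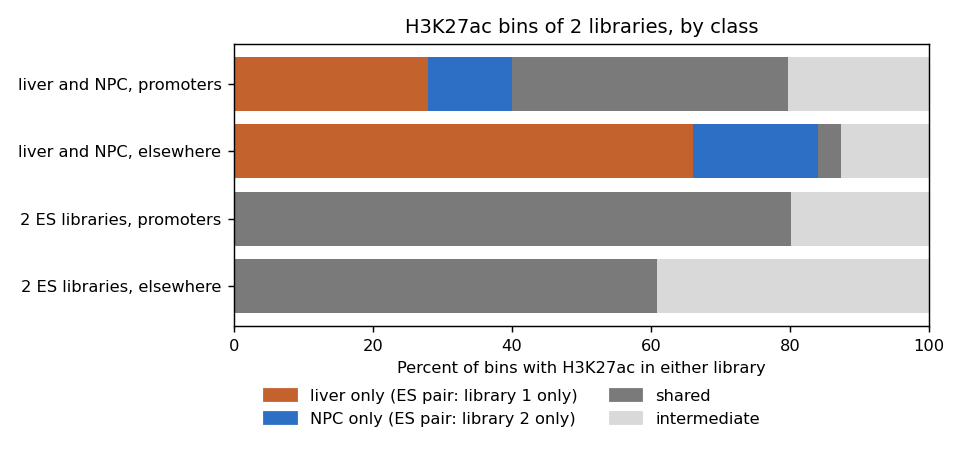
Share of marked bins in each class, in percent of the bins marked in either library, for liver and NPCs (top 2 bars) and for the 2 ES libraries (bottom 2 bars), at promoters and elsewhere. Shared bins make up 39.7% at promoters and 3.28% elsewhere between liver and NPCs, against 80.0% and 60.8% between the ES libraries.

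The balance between liver-only and NPC-only bins depended on the scale and on the promoter definition. Liver-only bins were 69.8% of the cell-type-only bins at promoters and 78.5% elsewhere. Where H3K4me3 was present in both ES cells and liver, the median promoter bin had 0.441 times the NPC level in liver (log2 -1.18). With NPC levels multiplied by 0.441 to make that median equal, these shares were 85.8% at promoters and 93.7% elsewhere, and the NPC-only bins elsewhere numbered 1782. With promoters taken from ES H3K4me3 alone, the balance at promoters turned round, with 871 liver-only and 3017 NPC-only bins, so that 22.4% were liver-only. The number of acetylated bins in liver was therefore compared at equal numbers as well. With the liver level raised to 8.71 RPM, 10046 liver bins elsewhere stood against 9738 NPC bins, and 529 were marked in both, which is 5.27% of the liver bins and 5.43% of the NPC bins.

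At the 4 RPM threshold, acetylated bins lay more often away from promoters in liver than in NPCs. Of 51494 bins marked in liver 45.4% were promoter bins, against 66.0% of 28626 bins marked in NPCs. These shares depend on the threshold. At 4 to 8 RPM liver had 16775 bins elsewhere and 6834 at promoters, and NPCs had 6086 and 3425. Liver had 8728, 6580 and 1215 promoter bins at 8 to 16, at 16 to 32 and at 32 RPM or more. Elsewhere it had 8813, 2432 and 117 bins over these steps. These liver bins at 8 RPM or more came near the 28626 NPC bins in number, and most of them were promoter bins. At near-equal numbers the contrast thus kept its direction but was smaller than at 4 RPM. Exactly equal numbers of bins were not compared. Promoter bins took 35.8% of distinct reads in liver and 53.0% in NPCs. The bins elsewhere marked in its own library took 24.6% of liver reads and 8.83% of NPC reads.

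**Figure D2:**
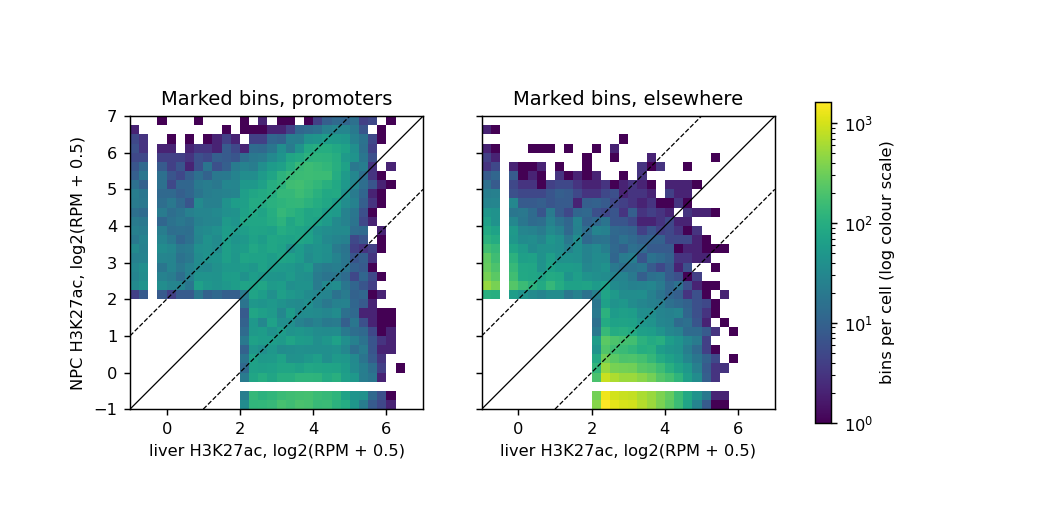
H3K27ac level of each marked bin in liver (x axis) and NPCs (y axis), as log2(RPM + 0.5), with colour giving the number of bins in each cell of the plot on a log scale. The solid line marks equal levels and the dashed lines a 4-fold difference, and the empty strips near the lower ends are levels that no whole number of reads gives; higher levels than the axes show are drawn in the last cells. Promoter bins form a ridge above the line of equal levels, whereas bins elsewhere lie along the axes.

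The make-up of promoters by class differed with the cells that carried H3K4me3, which was mapped in liver and ES cells but not in NPCs. Of 19097 bins with H3K4me3 in both ES cells and liver, 51.9% were shared, 4.31% liver-only and 12.6% (2402 bins) NPC-only. Of 14499 bins with H3K4me3 in liver and not in ES cells, 48.8% were liver-only, 9.18% shared and 2.91% (422) NPC-only. Of 3843 bins with H3K4me3 in ES cells and not in liver, 1.25% were liver-only, 16.003% (615) NPC-only and 79.3% marked in neither. Most of the 3439 NPC-only promoter bins thus carried H3K4me3 in liver, where they were not called acetylated. Liver H3K4me3 was part of the promoter definition. Of all 37439 promoter bins 19097 carried it in both cells and 14499 in liver and not in ES cells, so it did not set NPC-only bins apart. Bins with H3K4me3 in ES cells and not in liver averaged 0.792 RPM of H3K27ac in liver, 3.73 RPM in NPCs and 7.78 ± 0.742 RPM in ES cells (SD, n = 2 libraries). Promoter bins near the H3K4me3 threshold were weakly acetylated. The 3879 bins at 4 to 5 RPM of H3K4me3 averaged 4.92 RPM of H3K27ac in liver and 2.21 RPM in NPCs, and the 7312 bins just outside, at 3 to 4 RPM, averaged 4.00 RPM in liver and 1.74 RPM in NPCs.

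The level of a bin was related to whether the other cell had it too. In liver, 55.2% of promoter bins at 4 to 8 RPM were also marked in NPCs, and 62.7, 60.5 and 49.6% at 8 to 16, at 16 to 32 and at 32 RPM or more. In NPCs, the share of promoter bins also marked in liver was 51.5, 61.5, 76.9 and 89.5% over the same steps. The most acetylated promoters of NPCs were thus mostly acetylated in liver as well, whereas no such order was seen for the promoters of liver. Promoters were called from H3K4me3 of liver and ES cells, so 14499 bins with H3K4me3 in liver and not in ES cells were included. Promoters with H3K4me3 in NPCs alone were not. How far this sets the difference between the cells was not tested. Of all promoter bins 62.4% were marked in liver and 50.5% in NPCs. The NPC steps below 16 RPM and the liver step at 32 RPM or more did not exceed these shares. Elsewhere the share also marked in the other cell was 4.11, 4.72, 6.46 and 10.3% for liver bins over these steps, and 11.7, 14.3, 17.1 and 22.7% for NPC bins. Even among bins elsewhere at 32 RPM or more, most were thus not marked in the other cell. Every step still stood well above the shares of all bins elsewhere, of which 0.442% were marked in NPCs and 1.28% in liver.

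The state in ES cells differed between the classes, and promoters differed from the rest. ES cells were called acetylated where both ES libraries were marked, and H3K4me1 was called at 2 RPM and 3-fold over ES H3 in at least 2 of 3 libraries. At promoters 13.4% of liver-only bins (12.7 to 14.2%), 44.7% of NPC-only bins (43.0 to 46.3%) and 75.5% of shared bins (74.7 to 76.3%) were acetylated in ES cells. Promoters were called from H3K4me3 in liver or ES cells and not in NPCs, which sets these shares in part. Of 7943 liver-only promoter bins 7072 had H3K4me3 in liver and not in ES cells, against 422 of 3439 NPC-only bins. Neither mark was found in ES cells at 68.9% of liver-only, 30.5% of NPC-only and 12.1% of shared promoter bins, against 53.9% of promoter bins acetylated in neither liver nor NPCs. Promoter bins acetylated in neither liver nor NPCs were acetylated in ES cells in 24.5% of cases (23.7 to 25.4%), a higher share than among liver-only promoters. That set of 9025 bins held 3047 of the bins with H3K4me3 in ES cells and not in liver.

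Away from promoters most cell-type-only bins had neither mark in ES cells. This held for 84.1% of liver-only bins (83.6 to 84.6%), 74.4% of NPC-only bins (73.4 to 75.5%) and 47.9% of shared bins (45.1 to 50.7%), against 96.9% of the bins that were marked in neither liver nor NPCs. ES cells were acetylated in both libraries at 4.65% of liver-only, 10.1% of NPC-only and 29.0% of shared bins, against 0.685% of unmarked bins. H3K4me1 without acetylation was found in ES cells at 9.24% of liver-only, 12.5% of NPC-only and 14.2% of shared bins, against 1.99% of unmarked bins. All 3 classes thus carried an ES mark more often than unmarked bins, and shared bins most often. The ES H3K4me1 calls came from different lines, and with both other libraries required, neither mark was found at 86.7% of liver-only and 78.6% of NPC-only bins without the library of the transgenic line, and at 86.9% and 79.1% without that of the inbred line. Bins more than 5 kb from any promoter bin kept the order of the classes, with neither mark at 86.8% of 15226 liver-only, 78.4% of 5306 NPC-only and 57.6% of 658 shared bins.

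**Figure D3:**
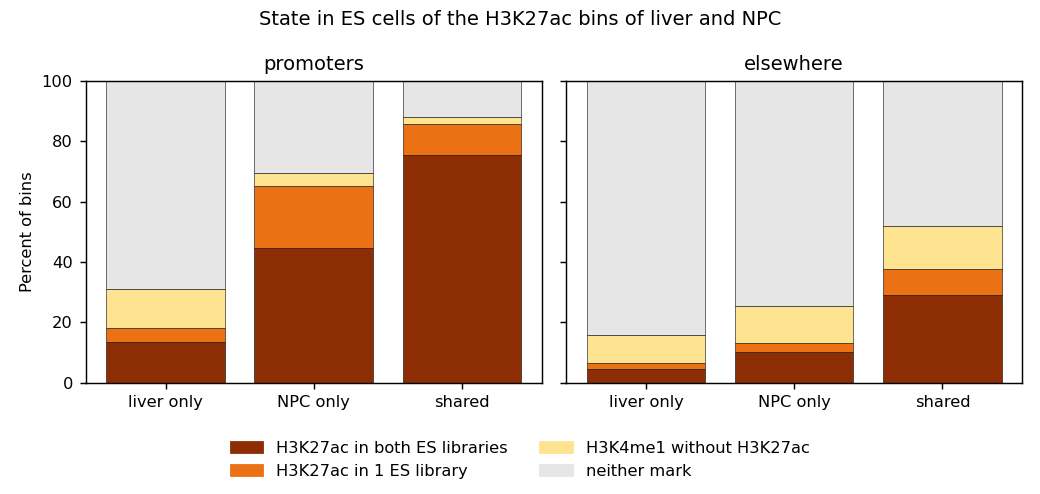
State in ES cells of liver-only, NPC-only and shared bins, in percent of the bins of each class, at promoters (left) and elsewhere (right). Acetylation in both ES libraries runs from 13.4% of liver-only to 75.5% of shared bins at promoters, and neither mark is found at 84.1% of liver-only and 74.4% of NPC-only bins elsewhere. Promoters were called from H3K4me3 of liver and ES cells, not of NPCs.

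The mean levels showed the same order as the shares. Liver-only promoter bins averaged 16.02 RPM in liver and 0.634 RPM in NPCs by their choice, and 2.44 ± 0.123 RPM in ES cells (SD, n = 2). NPC-only promoter bins averaged 1.48 RPM in liver and 21.0 RPM in NPCs by their choice, and 7.15 ± 2.08 RPM in ES cells. Shared promoter bins averaged 14.96 RPM in liver, 27.04 RPM in NPCs and 11.7 ± 2.84 RPM in ES cells. All promoter bins of the series averaged 7.18 ± 1.57 RPM in ES cells, so liver-only promoters stood below that average, NPC-only promoters near it and shared promoters above it. This order was read on promoters called from H3K4me3 of liver and ES cells, without a map of NPCs. Elsewhere ES cells averaged 1.16 ± 0.0889 RPM at liver-only, 1.95 ± 0.103 RPM at NPC-only and 4.41 ± 0.159 RPM at shared bins, against 0.332 ± 0.0266 RPM over all bins elsewhere. Elsewhere the ES level in each class therefore stood above the average bin by more than the spread of the ES pair, and below the 4 RPM threshold in both cell-type-only classes.

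Over the 19097 promoter bins with H3K4me3 in ES cells and liver, log2 levels of liver and NPCs correlated with r = 0.440 as a description across bins of single libraries, against 0.916 between the ES libraries. Liver correlated with the ES libraries at 0.478 and 0.460, and NPCs at 0.488 and 0.588. Once the median ratio was taken out, 19.2% of these bins still lay at least 4-fold apart between liver and NPCs, against 0.168% between the ES libraries. NPC levels were 2.55 and 1.85 times those of the ES libraries at the median bin.

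Marks that played no part in choosing the classes differed between them elsewhere. Liver H3K4me1, called at 2 RPM and 3-fold over liver H3, was present at 91.6% of liver-only, 11.5% of NPC-only and 90.1% of shared bins, against 3.52% of all bins elsewhere. Its mean was 7.03 RPM at liver-only, 1.19 RPM at NPC-only and 8.50 RPM at shared bins, and 0.391 RPM over all. Liver-only bins thus carried both enhancer-type marks in liver, from separate immunoprecipitations of the same kind of tissue. At promoters liver H3K4me1 was called at 69.6% of liver-only bins (68.6 to 70.6%), at 70.6% of NPC-only bins (69.0 to 72.1%) and at 45.7% of shared bins, against 56.3% of all promoter bins, so that the first 2 classes were not told apart by it. NPC-only promoters averaged 13.1 RPM of H3K4me3 in liver, against 16.7 RPM at liver-only and 36.4 RPM at shared promoters.

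Away from promoters, H3K4me1 of MEFs and p300 of ES cells were called more often at shared bins than at the cell-type-only bins. H3K4me1 of MEFs, set against MEF H3, was called at 16.5% of liver-only, 37.4% of NPC-only and 74.9% of shared bins elsewhere, against 3.20% of all bins. p300, an acetyltransferase, was called over ES whole cell extract in both ES libraries at 2.14% of liver-only, 6.74% of NPC-only and 11.1% of shared bins elsewhere, against 0.592% of all. At promoters MEF H3K4me1 did not show this order, at 25.8% of liver-only, 23.3% of NPC-only and 22.2% of shared bins against 24.0% of all promoter bins, while p300 was called at 5.53, 15.8 and 20.5% of these classes against 13.9% of all. Rfx1, a DNA-binding factor mapped in NPCs, had at least 5 reads at 0.323% of liver-only bins elsewhere, near the 0.260% of all bins there, but at 11.4% of NPC-only and 8.49% of shared bins. At promoters Rfx1 reached 5 reads at 4.22% of liver-only, 62.8% of NPC-only and 53.2% of shared bins, against 34.2% of all promoter bins. The Rfx1 library had 0.694 M distinct reads and 72.5% repeats and shares its cell type with the NPC H3K27ac library, and no NPC background was used, and how far the Rfx1 reads follow the H3K27ac level was not tested.

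The mean H3K27ac level fell off more slowly along the chromosome in liver. Around liver-only bins elsewhere the liver level was still 46.6% of its peak at 5 kb (4.196 against 8.997 RPM), whereas around NPC-only bins the NPC level was 18.6% of its peak at that distance (1.79 against 9.65 RPM). Around shared bins elsewhere, liver kept 42.9% and NPCs 31.6% at 5 kb. Shared promoters were narrower in both, with 11.9% in liver and 4.18% in NPCs at 5 kb. Shared bins give the comparison at the same places, and there too the liver level fell off more slowly. The neighbouring bins include promoter bins, which lay within 5 kb of 37.0% of liver-only and 19.8% of NPC-only bins elsewhere. How far they add to these levels was not tested.

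**Figure D4:**
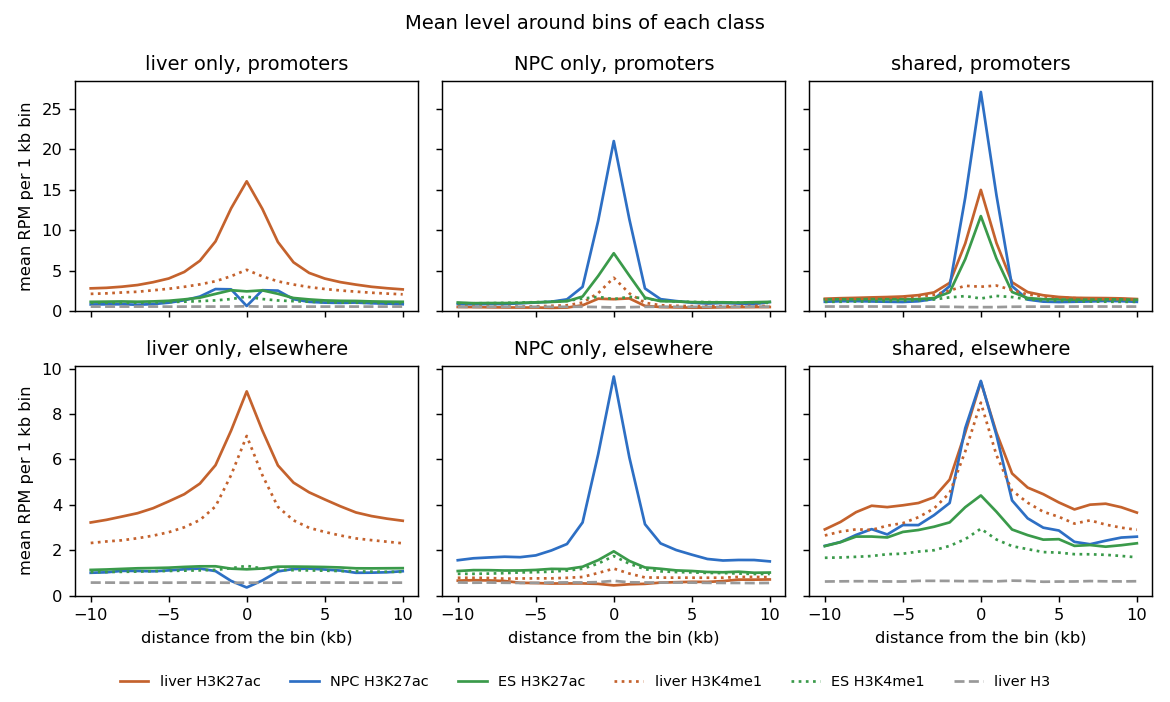
Mean level (RPM per 1 kb bin) of H3K27ac in liver, NPCs and ES cells, of H3K4me1 in liver and ES cells and of liver H3, against distance in kb from bins of each class at promoters (top) and elsewhere (bottom). Liver H3K27ac falls to 46.6% of its peak at 5 kb around liver-only bins elsewhere and NPC H3K27ac to 18.6% around NPC-only bins, and the dip of NPCs at the centre of liver-only bins comes from how these bins were chosen.

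Joining bins of 1 class up to 2 kb apart gave 10765 liver-only and 4357 NPC-only domains elsewhere. The widest spanned 66 kb in liver and 20 kb in NPCs. Domains of 5 kb or more were 14.1% of the liver-only domains and held 38.9% of their bins, against 3.03% and 9.82% for NPC-only domains. Shared bins elsewhere formed 918 domains, the widest of 12 kb. At promoters there were 4300 liver-only, 2597 NPC-only and 7232 shared domains, and the widest spanned 16 kb among liver-only, 9 kb among NPC-only and 12 kb among shared ones.

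Liver-only bins also lay nearer to promoters. The median distance to the nearest promoter bin was 10 kb for liver-only, 27 kb for NPC-only and 7 kb for shared bins elsewhere, against 90 kb over all bins. Promoters here were called in liver and ES cells, so the NPC distance has no promoter map of its own cell behind it. Within 5 kb of a promoter bin lay 37.0% of liver-only, 19.8% of NPC-only and 45.3% of shared bins, against 7.34% of all.

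Liver-only and NPC-only bins elsewhere lay near promoters of their own class more often than the average bin did, but not only near those. Among liver-only bins more than 5 kb from any promoter bin, 57.8% had a liver-only promoter bin within 50 kb and 7.87% an NPC-only one. Among NPC-only bins 16.4% had a liver-only promoter bin and 24.2% an NPC-only one within that distance. Over all bins more than 5 kb from promoters the shares were 10.8% and 8.29%. A liver-only promoter was thus met more often than average around both classes, and an NPC-only promoter more often than average around NPC-only bins. Around liver-only bins the share with an NPC-only promoter (7.45 to 8.31%) covered the average. Shared promoters stood within 50 kb of 53.6% of liver-only and 30.1% of NPC-only bins, against 17.2% of all. NPC-only bins thus had a shared promoter nearby more often than an NPC-only one. Among shared bins 65.3% had a shared, 48.9% a liver-only and 16.3% an NPC-only promoter bin within 50 kb, each above the average.

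The strongest domains are given with coordinates as deposited, 1-based, on positions that fit the chromosome lengths of the mm8 assembly. In each class they were the 5 with the highest summed level, so their own contrast is a description of the choice. The liver-only domain elsewhere with the highest sum lay at chr15:58808001-58838000, with 3333 reads in liver and 125 in NPCs (26.7-fold, 22.3 to 32.1). The next, at chr15:58841001-58907000, lay just beside it and was the widest of all at 66 kb, with 3911 reads in liver and 275 in NPCs. Both thus belonged to 1 acetylated region of the liver genome, with a short stretch without liver-only bins between them. ES cells carried H3K4me1 over both, at 3.18, 3.33 and 2.84 RPM per kb in the 3 libraries over the first domain and 3.17, 2.88 and 2.82 over the second, against 0.711 and 0.573 RPM per kb of ES H3.

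Other liver-only domains elsewhere differed in their ES state. At chr9:48468001-48509000 liver had 3226 reads and NPCs 76 (42.4-fold, 33.8 to 54.0), and all 38 of its liver-only bins had neither mark in ES cells. At chr2:167533001-167557000 liver had 2303 reads and NPCs 86, and all 21 bins had neither mark. At chr7:63773001-63809000 liver had 3067 reads and NPCs 248, and ES cells had 4.39 and 4.29 RPM per kb of H3K27ac, with 9 of 29 bins acetylated in both ES libraries. The 5 strongest liver-only domains thus included wholly unmarked and partly marked ES chromatin.

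The 5 leading NPC-only domains elsewhere spanned 12 to 20 kb, against 24 to 66 kb for the leading liver-only ones, and 3 of them held 4 or fewer liver reads. At chr3:88300001-88320000 liver had 4 reads and NPCs 1887 (NPCs 472-fold higher, 184 to 1733). At chr1:42628001-42640000 liver had 4 reads and NPCs 1323 (331-fold, 129 to 1216), and none of its 11 bins had either mark in ES cells. At chr13:84194001-84208000 liver had 3 reads and NPCs 1289 (430-fold, 147 to 2086). These 3 domains held less liver H3K27ac than liver H3, at 0.0396, 0.066 and 0.0424 RPM per kb of H3K27ac against 0.514, 0.448 and 0.35 RPM per kb of H3. Over all bins elsewhere liver H3K27ac also averaged less than liver H3, at 0.292 against 0.445 RPM. The gap was wider in these 3 domains, which were set apart here by their few liver reads. The domain with the highest sum, chr12:112128001-112145000, had 154 reads in liver and 2226 in NPCs (14.5-fold, 12.3 to 17.1). Its liver level of 1.79 RPM per kb was above that of liver H3, at 0.796 RPM per kb. At chr17:25283001-25298000 the counts were 13 in liver and 1132 in NPCs.

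The 5 liver-only promoter domains had between 0.791 and 2.84 RPM per kb of H3K27ac in the ES libraries. At the lower end, chr9:42977001-42992000 had 2498 reads in liver and 48 in NPCs (52.0-fold, 39.1 to 70.8), with 0.791 and 0.849 RPM per kb in ES cells. At chr9:45976001-45987000 the counts were 1852 in liver and 30 in NPCs (61.7-fold, 43.1 to 91.8), and at chr2:27501001-27511000 they were 1395 in liver and 25 in NPCs. ES cells had 2.25 and 2.73 RPM per kb there, with 2 of 9 bins acetylated in both ES libraries. At chr7:101194001-101207000 liver had 1829 reads and NPCs 76. Over these 4 domains ES H3K4me3 was between 0.345 and 1.72 RPM per kb, against 14.9 to 33.0 RPM per kb in liver. The remaining one, chr6:90427001-90440000, had 2575 reads in liver and 357 in NPCs (7.21-fold, 6.45 to 8.08) and held 9 liver-only bins of its 13, with an NPC bin of 36.2 RPM among the others. It had 1.95 and 2.84 RPM per kb in ES cells, with none of the 9 bins acetylated.

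The NPC-only promoter domains were acetylated in ES cells, but as promoters they had been required to carry H3K4me3 in ES cells or liver. At chr3:34840001-34846000 liver had 1 read and NPCs 1214 (NPCs 1214-fold higher, 217 to 47989), and ES cells had 19.1 and 27.9 RPM per kb, with 5 of 6 bins acetylated in both ES libraries. At chr16:91111001-91117000 liver had 1 read and NPCs 1415, with 6.37 and 9.22 RPM per kb in ES cells. H3K4me3 over these domains was 0.697 and 0.612 RPM per kb in liver, and 25.1 and 6.25 RPM per kb in ES cells. Averaged over each domain, both promoter marks thus stood below 4 RPM per kb in liver. Liver H3K4me3 was still above its mean of 0.0971 RPM over all bins elsewhere. A pair of domains on chromosome 14, chr14:53879001-53882000 with 6 reads and chr14:104778001-104785000 with 95 reads in liver, had 1043 and 1643 reads in NPCs. At chr7:144747001-144753000 liver had 86 reads and NPCs 1154, while H3K4me3 in liver was 14.0 RPM per kb. That promoter carried H3K4me3 in liver with little acetylation.

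Shared promoter domains were acetylated in ES cells too, whereas shared domains elsewhere varied in their ES state. The promoter domain at chr19:5842001-5851000 had 1524 reads in liver and 1466 in NPCs (1.04-fold, 0.967 to 1.12), with 33.5 RPM per kb in liver, 32.3 in NPCs, and 28.9 and 32.6 in ES cells. The promoter domain at chr17:33728001-33734000 had 935 reads in liver and 2365 in NPCs, so that a shared domain could still be 2.53 times higher in NPCs. Elsewhere, chr8:129551001-129555000 had 471 reads in liver and 574 in NPCs, while ES cells had 2.08 and 2.23 RPM per kb and H3K4me1 of MEFs stood at 11.8 RPM per kb. By contrast chr11:117125001-117137000, with 604 reads in liver and 958 in NPCs, was acetylated in ES cells at 12.0 and 14.6 RPM per kb, with 8 of 9 bins called in both libraries.

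**Figure D5:**
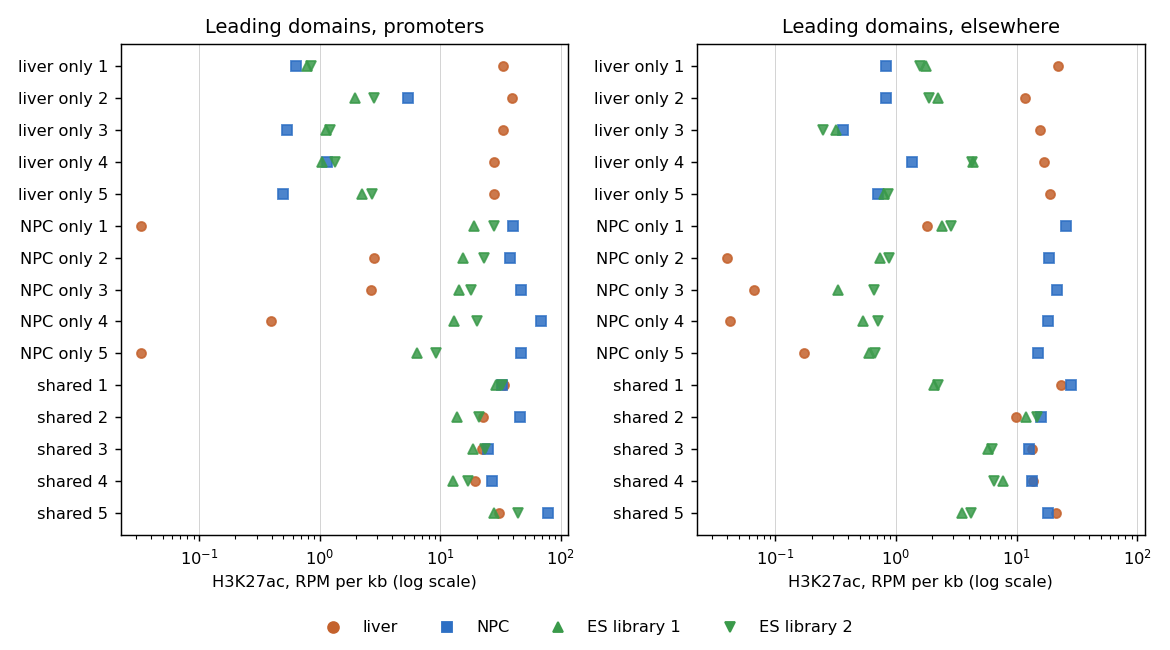
H3K27ac level (RPM per kb, log axis) in liver, NPCs and the 2 ES libraries over the 5 leading domains of each class, at promoters (left) and elsewhere (right), in the order of their summed level. ES levels lie between 6.37 and 27.9 RPM per kb over the NPC-only promoter domains and at 2.85 RPM per kb or lower over the NPC-only domains elsewhere.

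Single bins showed how complete the difference could be. The bin with the highest ratio among liver-only promoters, chr16:38213001-38214000, had 346 reads in liver and 0 in NPCs, at least 115-fold higher against a floor of 3 reads in the NPC library. Among NPC-only promoters, chr3:88085001-88086000 had 0 reads in liver and 534 in NPCs, at least 178-fold higher in NPCs. Elsewhere, chr9:43014001-43015000 had 226 reads in liver and 0 in NPCs, at least 75.3-fold, and chr1:106596001-106597000 had 0 in liver and 520 in NPCs, at least 173-fold. A count of 0 in the other library was met at 30.4% of liver-only and 31.2% of NPC-only bins elsewhere, but at 21.9% of liver-only and 9.48% of NPC-only promoter bins. An empty bin at this depth does not show that the mark was absent, since the mean bin held 2.25 reads.

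Many 1 Mb windows held both liver-only and NPC-only bins. Of 2413 windows, 1657 held liver-only bins, 1687 held NPC-only bins and 1375 held both, while 110 had at least 10 liver-only and 0 NPC-only bins and 16 the converse. Each class alone was met in most windows, so many windows with both would be met even if the classes were placed separately. Whether 1375 exceeds that number was not tested. The windows with most liver-only bins were chr2:27000001-28000000 with 159 against 4 NPC-only bins, chr10:127000001-128000000 with 126 against 5, and chr2:167000001-168000000 with 118 against 9. The windows with most NPC-only bins were chr3:88000001-89000000 with 28 liver-only and 67 NPC-only bins, chr17:25000001-26000000 with 20 liver-only and 43 NPC-only, and chr2:30000001-31000000 with 42 liver-only and 40 NPC-only. The median window held 5 liver-only and 2 NPC-only bins, so all 6 of these windows stood above the median in both classes. By chromosome, liver-only bins ranged from 9.39 per 1000 bins on chromosome 3 to 22.9 on chromosome 19, and NPC-only bins from 3.51 on chromosome 14 to 6.60 on chromosome 11. On each of the 19 chromosomes liver-only bins outnumbered NPC-only bins, by 2.35 times on chromosome 12 to 4.64 times on chromosome 19.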

How the data were processed

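The authors deposited, per the file headers and values, one list of signed read positions per library, in sections U0 and U1 and with repeated positions kept. Nothing had been counted or normalised. For the aligner and the build, the sources used here name none, and the largest positions lay within mm8 chromosome lengths. Reads with the same position and strand were counted once, moved 100 bp toward the fragment centre and summed in 1 kb bins of the 19 autosomes. Levels are RPM of distinct autosomal reads. The NPC library was thinned to 5049578 reads (seed 1). Classes and thresholds are those given in the text. Named regions were the 5 domains of each class with the highest summed RPM in the library that marked them (the lower library for shared domains), the 3 windows with most liver-only and most NPC-only bins, and the bin with the highest ratio per class. The members, thresholds and named-region rule were chosen with earlier results of these data known. Lists of marker genes were not used. Python 3.11.15, numpy 2.4.6, pandas 2.3.3 and scipy 1.17.1 were used, and the rule for the classes was tested on simulated bin counts. Alternatives to levels, folds, scaling, background, bins and promoters were tried, and no p-value was computed.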

Additional observations from a re-analysis of the deposited data

How the results depend on the processing

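Numbers of bins are compared with those given above where they moved by more than 1.5 times. At promoters, shared bins were 5708 where 2-fold made a bin cell-type-only; liver-only bins were 12529 with promoters at 2 RPM and 871 with promoters from ES H3K4me3 alone; NPC-only bins were 2013 at 8-fold and 1601 with NPCs rescaled. Elsewhere, shared bins were 2486 at 2 RPM per kb, 261 at 8 RPM, 458 with NPCs rescaled, 790 with promoters at 2 RPM, 494 with the liver level raised to the NPC number, 2533 with promoters from ES H3K4me3 alone and 658 over 5 kb from promoters. Liver-only bins elsewhere were 10449 at 8 RPM, 9248 with the liver level raised and 15226 over 5 kb from promoters. NPC-only bins elsewhere were 9997 at 2 RPM, 2837 at 8 RPM, 4258 at 8-fold and 1782 with NPCs rescaled. The other alternatives stayed within 1.5 times of the count. Over all alternatives the shared share was 20.1 to 55.3% at promoters and 1.495 to 5.39% elsewhere, and liver-only bins were 22.4 to 85.8% of the cell-type-only bins at promoters and 58.2 to 93.7% elsewhere.

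The share of liver-only bins elsewhere with neither mark in ES cells was 84.8% at 2 RPM, 82.3% at 8 RPM, 82.6% at 2-fold, 86.6% at 8-fold, 80.8% and 90.2% with 0.25 and 1 RPM added, 86.6% with whole cell extract as background, 76.7% with no background criterion, 82.4% with NPCs rescaled, 86.2% with promoters at 2 RPM, 85.4% with promoters widened by 1 bin on each side, 83.2% and 85.8% in bins of 500 and 2000 bp, 83.6% with ES H3K4me1 at 1 RPM, 81.1% with the liver level raised, 81.9% with promoters from ES H3K4me3 alone and 86.8% over 5 kb from promoters; leaving out 1 ES library gave 84.4 to 86.9%. For NPC-only bins the share was 70.1% at 8 RPM, 72.1% at 2-fold, 77.0% at 8-fold, 70.3% and 82.4% with 0.25 and 1 RPM added, 78.6% with whole cell extract, 64.7% with no background criterion, 70.0% with NPCs rescaled, 77.2% with promoters at 2 RPM, 75.9% with promoters widened, 72.2% and 77.6% in bins of 500 and 2000 bp, 73.3% with ES H3K4me1 at 1 RPM, 71.3% with promoters from liver H3K4me3 alone and 78.4% over 5 kb from promoters; leaving out 1 ES library gave 74.7 to 79.1%.

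The raised liver level, promoters from 1 cell type and the 5 kb limit were chosen after seeing the data. No paired analysis was possible because liver and NPCs had 1 library each. The depth of 5.05 M distinct reads makes 4 RPM 21 reads, so bins below that level were not resolved.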
